A study of Caenorhabditis elegans with 3 samples.

Results

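The nlp (neuropeptide-like protein) genes of the nematode Caenorhabditis elegans were followed in early young adult hermaphrodites. Members were all genes whose probe carried a single symbol beginning with nlp- and had a value on all 3 arrays. There were 52 such genes, read by 53 probes, among 15062 genes tested. A further gene, nlp-3, lacked a value on 1 array and is given apart. Of the 78 nlp symbols in the RefSeq gene table, 26 were not among the members. Apart from nlp-3 these, nlp-33 and nlp-34 included, were not analysed here.

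Worms at an early point of young adulthood formed 1 group of 3 RNA preps, numbered prep 1 to 3, and the sources used here state no strain, genotype or culture condition for them. Every prep was hybridised on its own two-colour DNA microarray against 1 common pool of mixed wild-type mRNA. The sources used here do not state the makeup of that pool by stage or sex. Values are log2 ratios, worms over this pool, called the reference below, so that -1 is a level 2-fold lower in the worms. Separate cultures are not stated for the preps, so p-values cover the spread from prep to prep and nothing wider, and that spread may be technical.

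The sign is likely worms over reference. In the labels channel 1 holds the reference and channel 2 the worms, and the adult cuticle collagen gene col-19 was at 2.53, 2.64 and 2.62 in preps 1, 2 and 3. The sources used here do not name the dyes. Should the sign run the other way, each direction reported here would turn round. All 13 genes of a germline list were above the reference, with medians of 1.55, 1.80 and 1.06 in preps 1, 2 and 3. They ran from oma-2 at 0.56 ± 0.36 and htp-1 at 0.67 ± 0.19 to glh-2 at 2.203 ± 0.29 and glh-1 at 2.52 ± 0.64 (SD, n = 3). The 13 intestinal genes lay on both sides, with 6 called above and 3 called below. For all genes tested these shares were 21.7% above and 22.2% below. The intestinal genes ran from ftn-1 at -2.21 ± 0.27 and cpr-1 at -0.75 ± 0.28 to vha-6 at 1.52 ± 0.67 and cpr-5 at 2.77 ± 0.23. In whole worms, fewer cells of a type and less RNA per cell cannot be told apart.

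Neuropeptides are cut from longer precursor proteins at pairs of basic residues, trimmed, often amidated, stored in dense core vesicles and released to act on receptors that are mostly coupled to G proteins. In C. elegans the nlp genes hold the precursors that are neither insulin-like nor of the FMRFamide-related flp class. The name also covers a group of small secreted peptides of the epidermis, nlp-27 to nlp-34, rich in glycine and aromatic residues. Of these, nlp-29 is the best known: it is switched on in the epidermis by fungal infection and by wounding, and the group is counted among the antimicrobial peptides.

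Most nlp genes were lower in the worms than in the reference. Of the 52 members, 37 fell below it, 1 rose above it and 14 did not pass limma's test (Benjamini-Hochberg adjusted p under 0.05). Over all genes tested, 22.2% were called below and 21.7% above. By at least 1 on the log2 scale, 30 members were below and none above, where 7.26% of all genes were called below and 5.81% above by that size. The median of the 52 means was -1.08, against 0.00 over all genes, and the medians in preps 1, 2 and 3 were -1.01, -1.09 and -1.23. The means ran from -3.06 for nlp-80 to 0.60 for nlp-4.

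The ratios were below 0 on all 3 arrays for 45 of the 52, a property of 33.1% of all genes. They were below -1 on all 3 arrays for 22, against 4.37% of all genes. In prep 1, 46 members were below 0, and in preps 2 and 3, 48 were. The 37 genes called below had adjusted p-values from 2.01e-06 to 0.0212, and the 14 that did not pass had means from -0.39 to 0.27. These calls rest on limma's variance shared across genes: with each gene's own variance none of the 15062 genes passed, and 39 members had an unadjusted p under 0.05, against 42 with limma.

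**Figure D1:**
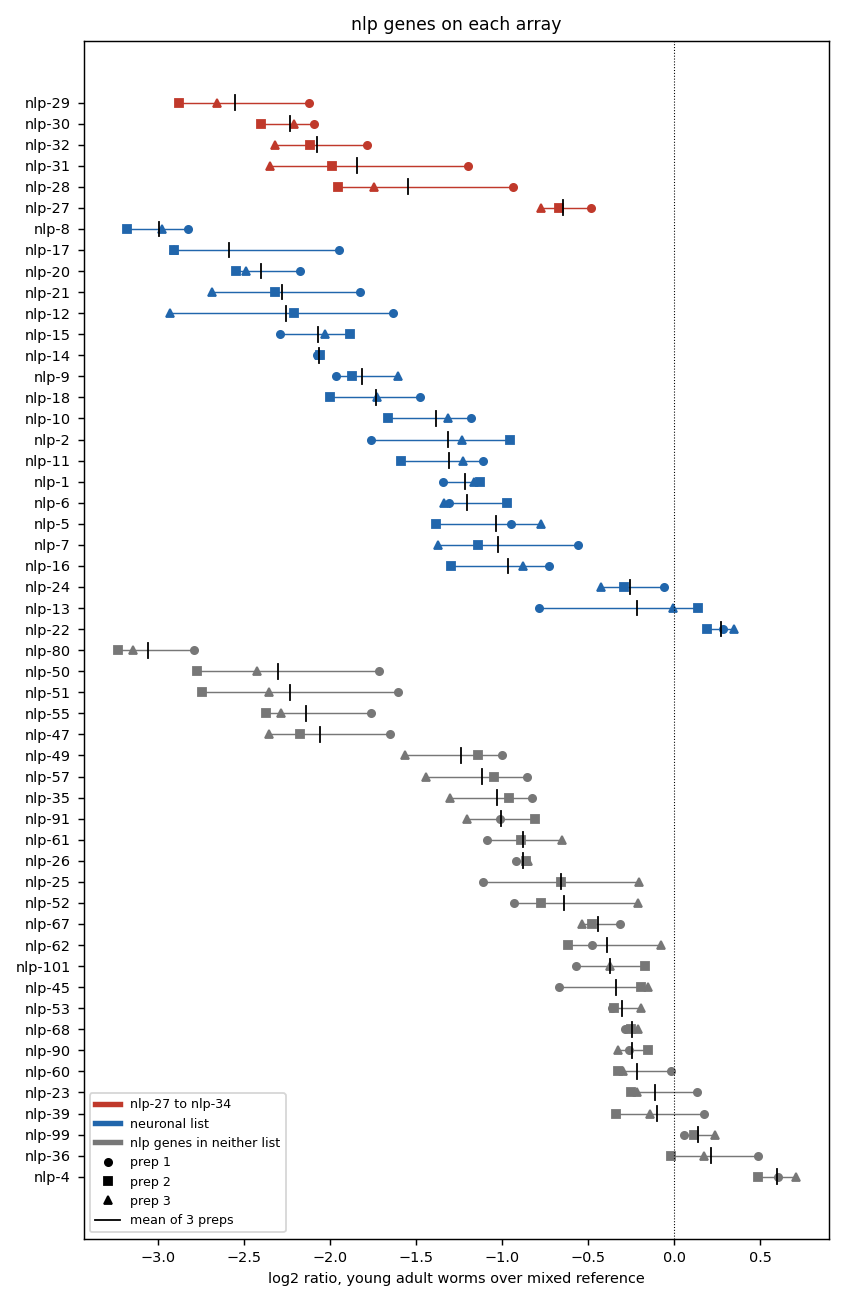
Log2 ratio of young adult worms over the mixed reference (x axis) for each of the 52 nlp genes (rows) on 3 arrays; circles, squares and triangles are preps 1, 2 and 3, black ticks the means and coloured lines the range. The 6 genes of nlp-27 to nlp-34 are red, the 20 genes of the neuronal list blue and the other 26 grey. Most rows lie left of 0, with nlp-80 and nlp-8 the farthest and nlp-4 to the right on every array.

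The epidermal group nlp-27 to nlp-34 had 6 measured genes, and all 6 were below the reference, against 22.2% of all genes. nlp-29, the infection and wound response gene, was at -2.13, -2.88 and -2.66 in preps 1, 2 and 3. Its mean of -2.56 ± 0.39 (SD, n = 3) was 5.88-fold below the reference (limma adjusted p = 5.37e-06). nlp-30 was at -2.10, -2.40 and -2.21, with a mean of -2.24 ± 0.16 (adjusted p = 3.96e-06). Both genes were lower than -2 on every array.

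nlp-32 was at -1.79, -2.12 and -2.32, a mean of -2.08 ± 0.27. For nlp-31, whose product is known as an antimicrobial peptide, the values were -1.201, -1.99 and -2.35, with a mean of -1.85 ± 0.59 (adjusted p = 1.02e-04). nlp-28 stood at -0.94, -1.95 and -1.75, with a mean of -1.55 ± 0.54. Prep 1 held the highest value of each of these genes, as it did for 44.3% of all genes tested. The smallest fall was that of nlp-27, at -0.49, -0.67 and -0.78, a mean of -0.65 ± 0.15 (adjusted p = 0.00360). On each array nlp-27 was the highest of the 6 genes. These genes are close relatives in sequence and may share signal on an array, so a single value among them is uncertain.

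The median of the epidermal group was -1.49, -2.05 and -2.27 in preps 1, 2 and 3. The other 46 nlp genes had medians of -0.98, -0.97 and -1.18. The difference was -0.52, -1.09 and -1.08, a mean of -0.90 ± 0.33 (SD, n = 3), with the epidermal group lower on every array. The genes overlapped: 14, 11 and 10 of the 46 lay below the epidermal median in preps 1, 2 and 3. The members were chosen by name with earlier results known, and 3 arrays are too few for an exact test of this value, so it is a description.

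The size of that difference depends on which genes stand for the neuronal peptides. The 46 others were taken by name, and their site of expression was not checked. In a narrower list of 22 nlp genes with known neuronal expression, 20 were measured, with medians of -1.41, -1.63 and -1.36 in preps 1, 2 and 3. Against this list the epidermal group differed by -0.08, -0.43 and -0.91, a mean of -0.47 ± 0.42. In prep 1 the groups were therefore nearly level, and the spread between preps was close to the size of the difference. The 26 genes in neither list had medians of -0.75, -0.64 and -0.35 in preps 1, 2 and 3, and a median of means of -0.54.

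**Figure D2:**
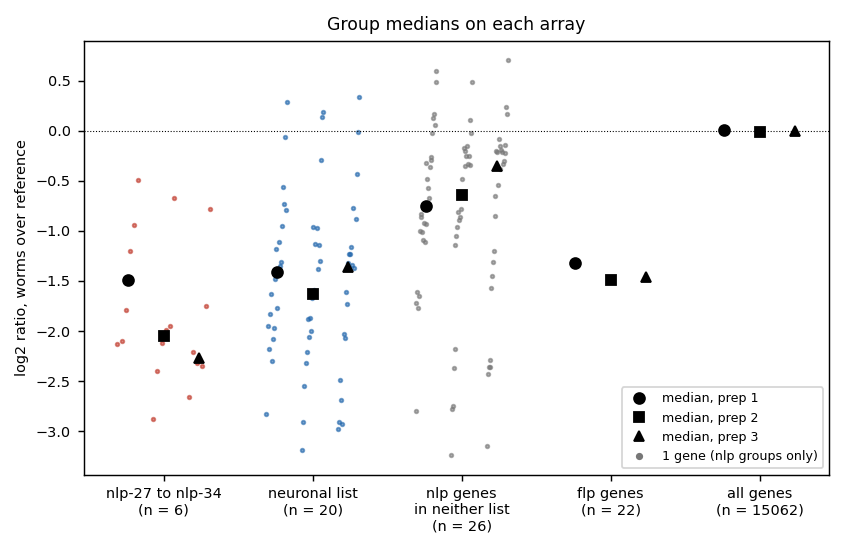
Medians of the log2 ratio, worms over reference (y axis), on each array for nlp-27 to nlp-34, the neuronal list, the nlp genes in neither list, the flp genes and all genes; black circles, squares and triangles are preps 1, 2 and 3 and small dots single nlp genes. The epidermal medians lie between -1.49 and -2.27 and those of the neuronal list between -1.36 and -1.63, with single genes of the groups overlapping.

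In the neuronal list, 17 of 20 measured genes fell below the reference, against 22.2% of all genes. None of the list rose above the reference and 3 did not pass, and 16 of the 17 were below by at least 1. The list's median of means was -1.35. nlp-8, whose peptides act in stress-induced sleep, was at -2.83, -3.18 and -2.98 in preps 1, 2 and 3, with a mean of -2.996 ± 0.18 (adjusted p = 2.01e-06). It was 7.98-fold below the reference and the lowest gene of the neuronal list on each array.

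nlp-14, a precursor of orcokinin-like peptides, was at -2.08, -2.06 and -2.06, the closest agreement of the 37 genes below, with a mean of -2.07 ± 0.0092 (adjusted p = 4.44e-06). Its relative nlp-15 was at -2.29, -1.88 and -2.03, with a mean of -2.07 ± 0.21. The value of nlp-15 is the mean of 2 probes, which read -2.36, -2.04 and -1.76, and -2.23, -1.73 and -2.31. By contrast nlp-22, known for quiescence during the larval moults, was at 0.28, 0.19 and 0.34. Its mean of 0.27 ± 0.08 did not pass (adjusted p = 0.119), and it lay above 0 on all 3 arrays.

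Of genes with known roles in movement and feeding, nlp-12 and nlp-49 fell and nlp-24 did not pass. nlp-12, expressed in the stretch-sensitive neuron DVA and acting on cholecystokinin-type receptors, was at -1.63, -2.21 and -2.93. Its mean of -2.26 ± 0.65 (adjusted p = 4.58e-05) had the largest spread of the 37 genes below. nlp-49, a locomotion and stress peptide that acts on SEB-3, was at -1.003, -1.14 and -1.57, with a mean of -1.24 ± 0.30 (adjusted p = 1.80e-04). nlp-24, whose opioid-like peptides are known from feeding in starved worms, was at -0.06, -0.29 and -0.43. Its mean of -0.26 ± 0.19 did not pass (adjusted p = 0.157), although without prep 1 it was -0.36 and passed (adjusted p = 0.0340).

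Single genes known from egg laying and from smell are given next. nlp-7, an inhibitor of egg laying, was at -0.56, -1.14 and -1.37, with a mean of -1.02 ± 0.42 (adjusted p = 0.00105). nlp-3, a stimulator of egg laying, had values on 2 arrays, -1.47 in prep 1 and -1.32 in prep 3. In a fit of the 3 arrays that kept probes with a value on at least 2, its mean over preps 1 and 3 was -1.40 (adjusted p = 3.31e-04). nlp-1, a peptide gene of the olfactory neuron AWC, was at -1.35, -1.13 and -1.16, with a mean of -1.22 ± 0.12 (adjusted p = 9.50e-05). The means of the 3 genes lay between -1.40 and -1.02.

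Other genes of the neuronal list reached lower ratios. nlp-17 was at -1.95, -2.91 and -2.91 in preps 1, 2 and 3, with a mean of -2.59 ± 0.56. nlp-20 was at -2.18, -2.55 and -2.49, a mean of -2.41 ± 0.20. nlp-21 was at -1.83, -2.32 and -2.69, with a mean of -2.28 ± 0.43. All 3 were highest in prep 1. The values of nlp-9 were -1.97, -1.87 and -1.61, those of nlp-18 were -1.48, -2.0 and -1.73, and those of nlp-10 were -1.18, -1.67 and -1.32. All 9 of these ratios were below -1.

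Smaller falls were seen for the remaining genes of the list. nlp-11 was at -1.11, -1.59 and -1.23, and nlp-2 at -1.77, -0.96 and -1.23. nlp-6 was at -1.31, -0.97 and -1.34, and nlp-5 at -0.95, -1.38 and -0.77. nlp-16 was at -0.73, -1.30 and -0.88, a mean of -0.97 ± 0.29. For these genes the preps had no common order. nlp-13 was at -0.79, 0.14 and -0.01, so that prep 1 stood apart, and its mean of -0.22 ± 0.50 did not pass (adjusted p = 0.372). Without prep 1 its mean was 0.064.

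Of the 26 nlp genes in neither list, 14 were below the reference, 1 was above and 11 did not pass. Over all genes, 22.2% were called below and 21.7% above. nlp-80 had the lowest mean of all members, at -2.80, -3.24 and -3.15 in preps 1, 2 and 3. Its mean of -3.06 ± 0.23 was 8.34-fold below the reference (adjusted p = 2.06e-06), and 0.212% of all genes had a lower mean. It was the lowest member in preps 2 and 3, while in prep 1 nlp-8 was lower. nlp-50 was at -1.72, -2.78 and -2.43 and nlp-51 at -1.61, -2.75 and -2.36, with means of -2.31 ± 0.54 and -2.24 ± 0.58. The pair had the same order of preps, with prep 1 highest and prep 2 lowest. Among the 52 members, prep 1 was highest for 30 and prep 2 lowest for 22.

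nlp-55 was at -1.77, -2.37 and -2.29, with a mean of -2.14 ± 0.33. nlp-47, which encodes a peptide related to adipokinetic and gonadotropin-releasing hormones, was at -1.65, -2.18 and -2.36, with a mean of -2.06 ± 0.37 (adjusted p = 1.44e-05). These genes, too, had their highest value in prep 1. nlp-57 was at -0.86, -1.05 and -1.45 and nlp-35 at -0.83, -0.96 and -1.31, with means of -1.12 ± 0.30 and -1.03 ± 0.25. The other 6 genes called below had means from -1.01 for nlp-91 to -0.44 for nlp-67. The weakest of these calls were not stable. nlp-67 lost its call when prep 2 was left out, at -0.43 (adjusted p = 0.166), and when prep 3 was, at -0.40 (adjusted p = 0.156). It also lost the call after centring within blocks of 200 neighbouring probes, at -0.20 (adjusted p = 0.279), and under a 1.2-fold margin (adjusted p = 0.258). nlp-25, at -1.11, -0.66 and -0.21, lost its call under the same centring, at -0.44 (adjusted p = 0.0523), and the same margin (adjusted p = 0.0841). nlp-52, at -0.94, -0.78 and -0.21, lost its call under that margin (adjusted p = 0.0771). Some genes that did not pass gained a call below. With block centring these were nlp-62 (adjusted p = 0.0291) and nlp-68 (adjusted p = 0.0342). Without prep 3, nlp-62 also passed (adjusted p = 0.0486). nlp-101 passed with arrays centred on their median (adjusted p = 0.0489) and with quantile normalization (adjusted p = 0.0475).

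nlp-4 was the 1 member that rose above the reference, with 0.60, 0.49 and 0.70 in preps 1, 2 and 3 and a mean of 0.60 ± 0.11 (adjusted p = 0.00483). Its 3 values lay above those of every other member on the same array. The call ended when prep 3 was left out, at 0.54 (adjusted p = 0.0502), and under a 1.2-fold margin (adjusted p = 0.0552). nlp-36 at 0.49, -0.02 and 0.17 and nlp-99 at 0.06, 0.11 and 0.24 had positive means that did not pass.

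nlp genes were compared by chromosome, since X-linked genes as a whole had lower ratios, worms over reference, than autosomal genes. Of 16 X-linked members, 10 were below the reference, where 33.2% of all X-linked genes were called below. Of 36 autosomal members, 27 were below, where 20.3% of autosomal genes were. The median was -0.94 for the X-linked and -1.47 for the autosomal members, against -0.22 and 0.05 for all X-linked and all autosomal genes. The X-linked members thus had the higher median, whereas X-linked genes as a whole had the lower one. By chromosome the members' median ran from -1.74 for the 7 on II to -0.94 on X.

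The epidermal group lies on autosomes, with 5 genes on V and nlp-32 on III. Set against the 30 autosomal genes among the other nlp members alone, its difference was -0.38, -0.57 and -0.997 in preps 1, 2 and 3, a mean of -0.65 ± 0.32.

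**Figure D3:**
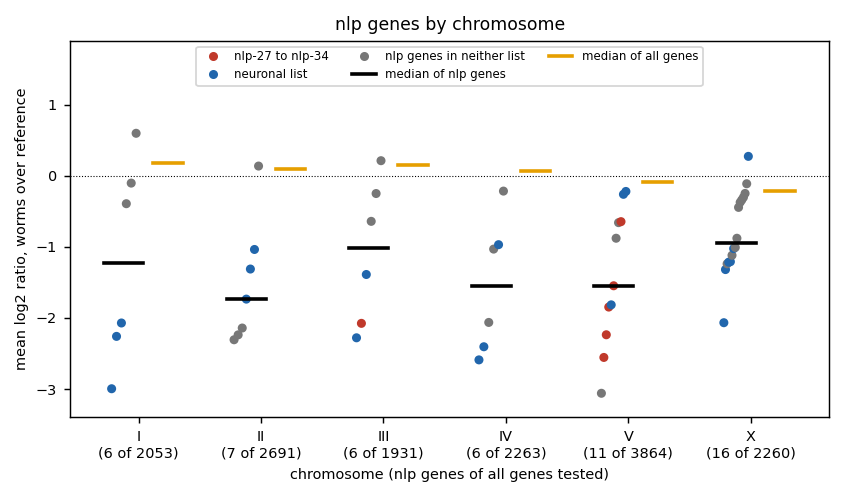
Mean log2 ratio of 3 preps, worms over reference (y axis), of each nlp gene by chromosome (x axis); black bars are the medians of the nlp genes and orange bars those of all genes on that chromosome. The black bars lie between -0.94 on X and -1.74 on II, below the orange bars, which lie between -0.22 and 0.17.

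Some members lie next to each other in the genome, by the order of protein-coding genes in WBcel235. nlp-31, nlp-30, nlp-29, nlp-28 and nlp-27 follow each other on chromosome V with no gene between them, beside nlp-34. Their means in that order were -1.85, -2.24, -2.56, -1.55 and -0.65, so the middle gene was the lowest and an end gene the highest. The X-linked row of nlp-45, nlp-22, nlp-23 and nlp-2 had means of -0.34, 0.27, -0.11 and -1.32. Of these nlp-2 fell (adjusted p = 2.40e-04), and the other 3 did not pass. On V, nlp-9 fell and its neighbour nlp-13 did not pass. nlp-91 on X fell to -1.01 ± 0.20 (adjusted p = 3.65e-04), while its neighbour nlp-90, at -0.25 ± 0.09, did not pass.

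The caenacin genes, cnc, encode epidermal antimicrobial peptides related to those of nlp-27 to nlp-34. Of 11 listed, 7 were measured, with a median of -1.14. Among these, 5 were below the reference, against 22.2% of all genes, and 2 did not pass. cnc-1 was at -1.85, -2.94 and -2.50 in preps 1, 2 and 3, with a mean of -2.43 ± 0.55 (adjusted p = 1.71e-05). cnc-2, a gene under the TGF-beta-like ligand DBL-1, was at -1.33, -2.01 and -2.69, with a mean of -2.01 ± 0.68. Both had their highest value in prep 1, as did the epidermal nlp genes and 44.3% of all genes tested. cnc-5, which lies beside cnc-1, was at -0.01, -0.15 and -0.14, and cnc-8 had a mean of -0.25 ± 0.20, and neither passed.

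**Figure D4:**
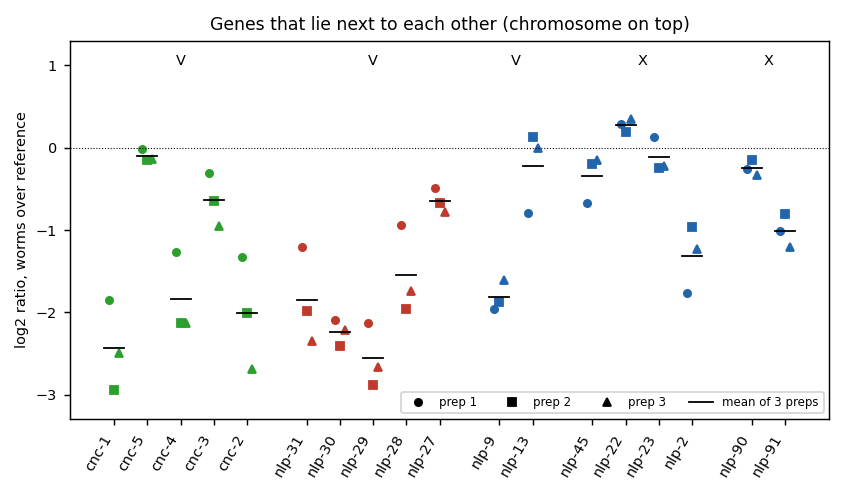
Log2 ratio, worms over reference (y axis), of genes that are neighbours on a chromosome (named on top), in their order; circles, squares and triangles are preps 1, 2 and 3 and black bars the means, with cnc genes green, the epidermal nlp genes red and other nlp genes blue. Within the rows the means differ, from -2.56 for nlp-29 to -0.65 for nlp-27, and from -1.32 for nlp-2 to 0.27 for nlp-22.

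Genes known to control the epidermal peptides were mostly below the reference. Of 17 measured genes of epidermal defence signalling, 11 were below the reference, 1 was above and 5 did not pass, with a median of -0.51. The shares for all genes were 22.2% below and 21.7% above. The lowest were tir-1, the SARM-type adaptor, at -1.37 ± 0.34 (adjusted p = 1.32e-04), and sta-2, a STAT-like factor needed for nlp-29 induction, at -1.09 ± 0.21. A further gene of this list, nipi-3, was at -0.85 ± 0.14. rack-1, also a general ribosome-associated protein gene, rose to 0.71 ± 0.36 (adjusted p = 0.00541), and the p38 kinase gene pmk-1, at 0.23 ± 0.08, did not pass. Among 16 epidermal marker genes 10 were below, 2 above and 4 did not pass, with a median of -0.90. They ran from wrt-10 at -3.13 ± 0.68 and the collagen gene rol-6 at -2.46 ± 0.68 to the collagen genes col-12 at 1.00 ± 0.40 and col-19 at 2.60 ± 0.06. Their part in the values of nlp-27 to nlp-34 was not tested.

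Genes that process and release neuropeptides lay on a broad range. Of 13 measured, 8 were below the reference, against 22.2% of all genes. None was above and 5 did not pass, with a median of -0.44. sbt-1, which encodes the chaperone of the convertase EGL-3, was at -2.89, -2.62 and -2.55 in preps 1, 2 and 3, with a mean of -2.68 ± 0.18 (adjusted p = 2.19e-06). The dense core vesicle gene ida-1 was at -2.44 ± 0.51, and the amidation enzyme gene pamn-1 at -1.88 ± 0.23. The carboxypeptidase gene egl-21 at 0.23 ± 0.25 and unc-31, which acts in vesicle release, at 0.04 ± 0.23 did not pass.

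Of 11 measured receptor genes, 6 were below the reference, against 22.2% of all genes. None was above and 5 did not pass, with a median of -0.50. pdfr-1, a receptor for PDF peptides, was at -1.45 ± 0.18 (adjusted p = 4.26e-05) and seb-3, the receptor of NLP-49, at -1.15 ± 0.09 (adjusted p = 1.22e-04). The NLP-12 receptor genes ckr-1 and ckr-2 were at -0.90 ± 0.53 and -0.72 ± 0.05, against -2.26 for nlp-12. npr-11, the receptor of NLP-1, at 0.08 ± 0.39, npr-17, an opioid-type receptor gene tied to nlp-24, at -0.31 ± 0.07 and tkr-1 at 0.01 ± 0.22 did not pass.

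Markers of neurons as a whole were mostly below the reference. Of 16 pan-neuronal genes, 10 were below the reference, 2 were above and 4 did not pass, where 22.2% of all genes were below and 21.7% above. Their medians were -0.48, -0.80 and -0.66 in preps 1, 2 and 3. The lowest were the synaptic genes ric-4 at -1.88 ± 0.16 and snt-1 at -1.75 ± 0.22. ehs-1 at 0.81 ± 0.32 and unc-11 at 0.40 ± 0.10, both endocytosis genes, were above. The part of these neuronal shifts, and of the germline genes, in the nlp values was not tested. The 22 measured flp genes had medians of -1.32, -1.49 and -1.46, with 20 below and 2 that did not pass, from flp-1 at -3.31 ± 0.13 and flp-4 at -2.17 ± 0.39 to flp-27 at -0.27 ± 0.24 and flp-23 at -0.06 ± 0.22.

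**Figure D5:**
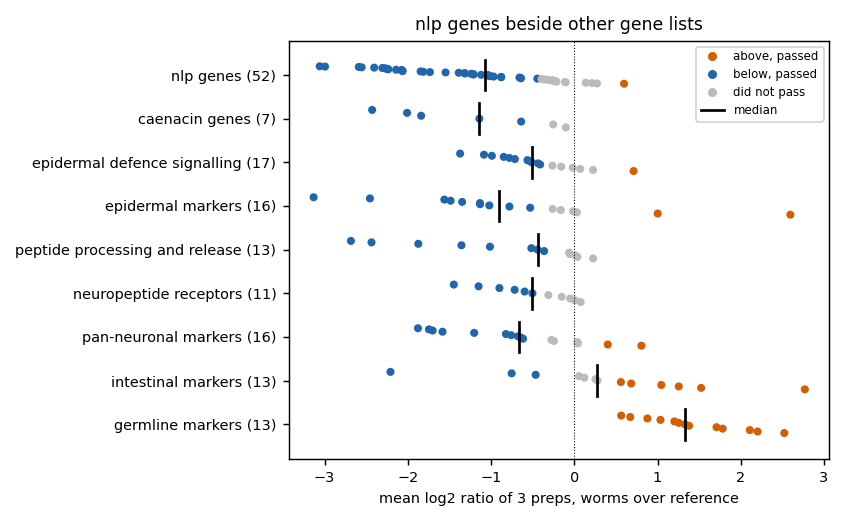
Mean log2 ratio of 3 preps, worms over reference (x axis), of the genes of each list (rows, number measured in brackets); blue, orange and grey points are genes below the reference, above it and not past the limma test, and black bars the medians. The nlp genes lie mostly left of 0 with a median of -1.08, and all 13 germline genes lie right of it.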

How the data were processed

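The authors deposited 1 value per probe and array, used here as a log2 ratio. The base was inferred: under base 2 the linear ratios below 1 fell on steps of 0.001, to within 0.01 of a step, in 100% of cases, and under base e in 3.12%. The sources used here do not state the dyes, background correction or normalization. Column medians were 0.0072, 0.0058 and 0.0158 for preps 1, 2 and 3, and the ratios were used as deposited. Spot intensities were not analysed here, and the number of arrays limits the precision.

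Of 20000 probes, 19664 had a value on all 3 arrays. Probes with 1 symbol in the platform's annotation were averaged by gene on each array, which gave 15062 genes. All 52 members were matched in a RefSeq table of WBcel235, used for names, chromosomes and gene order but not coordinates. Each gene's mean was tested against 0 with limma 3.58.1 in R 4.3.3 (lmFit, eBayes, two-sided), with Benjamini-Hochberg adjustment over all genes. The prior had 7.34 degrees of freedom and an SD of 0.25. The reference's own spread is not in the test. The steps were tested on simulated data in which genes were changed by known amounts. With the spread drawn from limma's fitted prior, all genes changed by the larger amounts were called. With each gene's own SD of 3 arrays, some of them were missed. The prior-based simulation was added after that shortfall was seen, and it shares the model's own assumptions.

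The members, the lists and the tests were chosen with earlier results of these data known. By rule, values on each array were given for nlp-27 to nlp-34, the neuronal list, members above the reference and the 8 lowest genes in neither list, and from each other list the 2 highest and 2 lowest genes were named, with their means. The remaining genes named were chosen after their values were seen, for their known roles or their place beside a member. Lists are described by counts and medians, with no test. Their counts are to be read beside the 22.2% of all genes called below and 21.7% called above. Protein sequences and motifs were not analysed here.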

Additional observations from a re-analysis of the deposited data

How the results depend on the processing

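The count of nlp genes below the reference was 37 and lay between 34 and 38 under the alternatives run: centred, scaled, quantile normalized and block-centred arrays, probes on at least 2 arrays, robust eBayes, a 1.2-fold margin, probes in place of genes, and each prep left out (37 to 38). The genes counted were not always the same. Fits with a prep left out kept probes with a value on both remaining arrays. Without prep 2, nlp-3 therefore joined the set, while nlp-67 lost its call (adjusted p = 0.166). Without prep 3, nlp-67 lost its call (adjusted p = 0.156) and nlp-62 gained one (adjusted p = 0.0486). The count above was 1, but 0 with the 1.2-fold margin, and 0 to 1 with a prep left out (0 without prep 3). The median of the other nlp genes, here the mean of the 3 prep medians, was -1.04. It moved with block centring (-0.90) and with the neuronal list alone (-1.47). In a choice made after seeing the data, it also moved with autosomal genes alone (-1.29). The difference of the epidermal group from the others moved to -0.47 with the neuronal list alone, and with a prep left out it ran from -1.08 to -0.78. With block centring this difference was -1.14, with means of the members -0.71, and with autosomal genes alone -0.65. Sign changes were seen for members near 0 that had not passed: nlp-90 (0.050) and nlp-23 (0.20) with block centring, and, with a prep left out, nlp-13 (-0.40 to 0.064, positive without prep 1) and nlp-39 (-0.15 to 0.016, positive without prep 2). The cause was not tested. A second nlp-39 probe had no value in prep 1 and was left out of the main fit. It read 0.07 in prep 2 and -0.18 in prep 3. The fit without prep 1 averaged it in, and there nlp-39 was at -0.15. With no moderation of the variance all 38 called members lost their call. No paired analysis was possible because all arrays form 1 group. With no spot intensities, dim probes could not be left out.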

Other observations

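Prep 1 held the highest value for 30 of the 52 nlp genes and for 44.3% of all genes. It did so for 25 of the 36 autosomal members (69.4%), against 45.6% of all autosomal genes. Among the 16 X-linked members it did so for 5, against 36.9% of all X-linked genes. It did so for all 6 genes of nlp-27 to nlp-34. Prep 2 held the lowest value for 22 members and preps 1 and 3 for 15 each. Over all 15062 genes, prep 1 was lowest for 5428, prep 3 for 4980 and prep 2 for 4654. Across the 52 genes, Pearson's r was 0.90 between preps 1 and 2, 0.89 between preps 1 and 3 and 0.96 between preps 2 and 3, and over all genes it was 0.82, 0.80 and 0.92. The arrays share a reference, and genes are not independent replicates, so these are descriptions.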
